A study of Mus musculus with 26 samples.

Results

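Transcripts of 8 genes that serve as markers of pericytes, Rgs5, Kcnj8, Abcc9, Cspg4, Vtn, Higd1b, Anpep and Mcam, were followed through mouse RPE/choroid, the retinal pigment epithelium together with the vascular bed beneath it. The genes were taken from a fixed list, and all 8 had a row among the 16426 genes of the single-cell tables. Single-cell libraries were made from 2 strains, B6129PF1/J and C57BL/6J, each from the pooled tissue of 1 male and 1 female eye of 3-month-old mice, after sorting of nucleated live cells (Hoechst+/TO-PRO-3-). Bulk RNAseq covered RPE/choroid of 6-month-old Ihh iΔEC/iΔEC mice on a C57BL/6J background, in which tamoxifen given 12 weeks earlier activated Cdh5-PAC-CreERT2, a recombinase driven by an endothelial promoter, in a loxP/loxP Ihh background. Their Ihh+/+ controls, labelled wild type, carried the same Cre and received tamoxifen too, with 3 libraries in each genotype. A second bulk set held GFP+ choroidal cells sorted from pooled adult female Gli1GFP/+ mice (labelled SWR/J; per the study's methods the line was outcrossed to BALB/c), expanded in culture and exposed for 24 h to vehicle (DMSO) or to 100 nM SAG, an agonist of the Hedgehog pathway, with 3 libraries each. The series held 26 samples in 10 groups, and the endothelial groups of other organs entered no comparison here.

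Pericytes are mural cells that sit within the basement membrane of capillaries, whereas vascular smooth muscle cells wrap arterioles and venules and carry a fuller contractile apparatus. Both cell types share many transcripts, so no single gene separates them in every tissue. Kcnj8 and Abcc9 encode the pore and the sulphonylurea receptor subunit of an ATP-sensitive potassium channel, through which metabolic state can set the membrane potential of mural cells. Choroidal capillaries lie directly under the RPE and carry mural cells more sparsely than those of the retina.

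The 3637 cells of the B6129PF1/J library held 17168578 UMIs (unique molecular identifiers, 1 per captured transcript), and the 3928 cells of the C57BL/6J library held 15230413. The authors' assignment of cells to 13 clusters was kept, in which clusters 5 to 8 were stromal and cluster 9 was smooth muscle. Cluster 6 comprised 541 and 603 cells (B6129PF1/J and C57BL/6J, the order used throughout) with medians of 3595 and 2870 UMIs, and cluster 9 comprised 373 and 463 cells with medians of 4635 and 3803. Only 22 cell barcodes occurred in both libraries. The label of cluster 9 held against its markers, since Acta2, Tagln, Myh11, Cnn1 and Lmod1 were highest there in both libraries. Des was highest in cluster 6 in B6129PF1/J. Cluster 6 carried less of the 8 stromal markers than the other stromal clusters, but more than cluster 9. Their summed levels were 30.1 and 23.9 UMIs per 10,000 in cluster 6 and 3.14 and 2.67 in cluster 9. Clusters 5, 7 and 8 had 95.3 to 231 and 93.7 to 267. Of the 8 markers, 1 (Dpt) was at 0 in cluster 6. Cluster 6 is therefore called by its number. With 1 library per strain there was no test between clusters or strains, and the clusters were themselves built from the expression of these cells, so all levels are descriptions. Intervals are exact 95% intervals of summed counts or shares and cover counting error only.

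Promoter sequences are shown for the 4 genes whose levels differed most in kind: Kcnj8 and Abcc9, neighbours on chromosome 6 that followed each other across clusters, Vtn, which was nearly restricted to 1 cluster, and Rgs5, which was high in clusters 6 and 9 alike. The sequences are the bases before each annotated start without those that overlap an annotated exon, from RefSeq on GRCm38.p6, each read 5′ to 3′ on the strand of its gene. The 2 motifs searched on both strands were the CArG box, bound by serum response factor at contractile genes, and TGGGAA, the core bound by the Notch effector RBPJ. Capitals mark TGGGAA.
Kcnj8, chr6:142571615-142571864, minus strand: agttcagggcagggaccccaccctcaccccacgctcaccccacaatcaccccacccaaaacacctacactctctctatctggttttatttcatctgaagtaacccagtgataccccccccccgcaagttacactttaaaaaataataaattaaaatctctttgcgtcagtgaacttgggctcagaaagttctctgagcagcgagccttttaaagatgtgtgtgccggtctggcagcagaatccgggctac
Abcc9, chr6:142702316-142702524, minus strand: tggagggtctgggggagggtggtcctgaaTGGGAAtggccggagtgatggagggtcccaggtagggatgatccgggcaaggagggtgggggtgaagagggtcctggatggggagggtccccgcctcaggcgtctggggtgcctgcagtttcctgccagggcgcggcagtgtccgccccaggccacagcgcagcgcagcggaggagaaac
Vtn, chr11:78498870-78499090, plus strand: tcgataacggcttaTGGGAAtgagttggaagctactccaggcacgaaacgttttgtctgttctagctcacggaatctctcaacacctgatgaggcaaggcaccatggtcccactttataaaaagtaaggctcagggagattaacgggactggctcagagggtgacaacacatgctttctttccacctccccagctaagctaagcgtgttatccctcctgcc
Rgs5, chr1:169655251-169655500, plus strand: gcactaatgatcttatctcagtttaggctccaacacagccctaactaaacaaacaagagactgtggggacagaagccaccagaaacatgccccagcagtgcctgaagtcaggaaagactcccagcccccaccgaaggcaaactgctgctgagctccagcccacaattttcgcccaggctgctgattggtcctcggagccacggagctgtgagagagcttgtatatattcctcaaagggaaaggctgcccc

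TGGGAA began 221 bases before the start of Abcc9 and 236 bases before that of Vtn, and lay in the 250 upstream bases of 21.6% of 32851 promoters. No member with a promoter in the table matched the CArG box, which 1.47% of all promoters held. Kcnj8 (chr6:142564837-142571614) and Abcc9 (chr6:142587862-142702315) were separated by 16247 bases and both lay on the minus strand. The other members were single genes on chromosome 1 (Rgs5), 7 (Anpep), 9 (Cspg4, Mcam) and 11 (Vtn, Higd1b). Higd1b had no entry in the promoter table.

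The 8 markers did not share 1 cluster. Kcnj8, Abcc9, Vtn and Higd1b were highest in stromal cluster 6 in both libraries, Cspg4 was highest in smooth muscle cluster 9, and Anpep was highest in stromal cluster 8. Rgs5 was nearly level between clusters 6 and 9, and Mcam between cluster 9 and the Schwann cells of cluster 12. Of the 8 members, 5 and 4 were highest in cluster 6, against a background of 4.28% and 4.27% of all genes with at least 20 UMIs. In cluster 9, 2 members were highest in each library, against 5.59% and 5.43%.

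**Figure D1:**
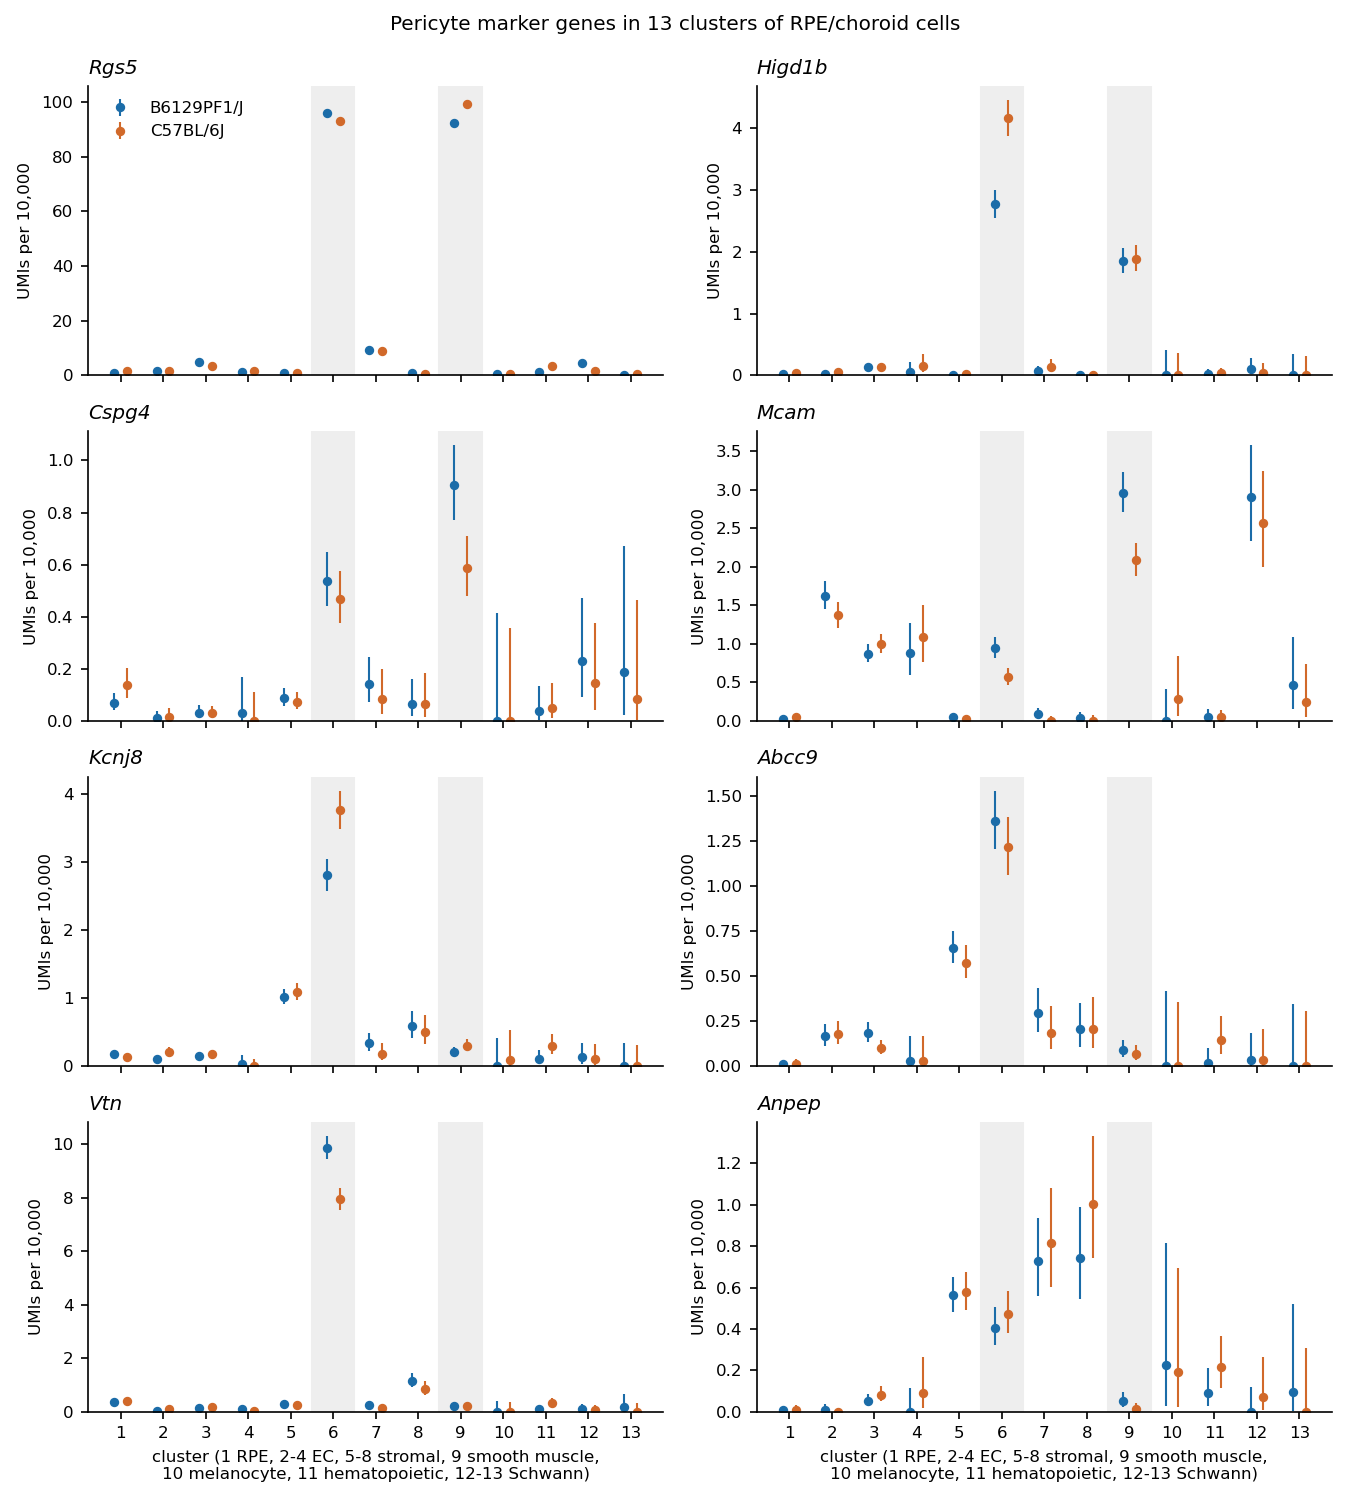
Level of each marker (vertical axis, UMIs per 10,000 UMIs of the cluster) in the 13 clusters (horizontal axis), with 1 point per library (blue, B6129PF1/J; orange, C57BL/6J), exact 95% counting intervals as bars and clusters 6 and 9 shaded. Rgs5 stood at 92.4 to 99.3 in both shaded clusters, whereas Vtn reached 9.86 and 7.94 in cluster 6 and 0.197 and 0.223 in cluster 9.

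Rgs5 encodes a regulator of G protein signalling that shortens signals from vasoactive receptors. Its level was 95.9 and 92.95 UMIs per 10,000 in cluster 6 and 92.4 and 99.3 in cluster 9. The level of cluster 6 over that of cluster 9 was 1.04 (1.02 to 1.06) in B6129PF1/J and 0.936 (0.917 to 0.956) in C57BL/6J. By this measure the order of the 2 clusters differed between the libraries, but the differences were small and the intervals leave out the choice of normalisation. Together they held 92.0% and 93.1% of all Rgs5 UMIs. After thinning every cell to 1700 UMIs, 94.3% and 96.2% of cells in cluster 6 and 96.5% and 97.8% in cluster 9 had an Rgs5 UMI. Stromal cluster 7 followed at 9.36 and 8.92 UMIs per 10,000 and 44.3% and 52.5% of thinned cells, and the remaining clusters lay between 3.3% and 12.1% of cells. Before thinning, the shares were 96.5% and 97.8% in cluster 6 and 99.7% and 99.1% in cluster 9.

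Higd1b, a member of a family of small mitochondrial proteins induced by hypoxia, was like Rgs5 largely confined to the same pair of clusters. Its level was 2.77 and 4.16 UMIs per 10,000 in cluster 6 and 1.85 and 1.89 in cluster 9. Cluster 6 exceeded cluster 9 by 1.49-fold (1.30 to 1.72) and 2.20-fold (1.93 to 2.51). The 2 clusters held 93.7% and 93.8% of all Higd1b UMIs, and every other cluster stayed at or below 0.151 per 10,000. In cluster 8, none of the 160 cells of either library had a Higd1b UMI, which allows a share of cells with a UMI of up to 1.88% (3 cells of the total, the limit used for every count of 0).

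Vtn encodes vitronectin, a secreted adhesive glycoprotein that binds integrins. It reached 9.86 and 7.94 UMIs per 10,000 in cluster 6 and 0.197 and 0.223 in cluster 9, where 35 and 40 UMIs were counted. The level of cluster 6 was 49.9998-fold (35.8 to 72.0) and 35.6-fold (25.996 to 49.99) that of cluster 9, and cluster 6 alone held 84.5% and 82.7% of all Vtn UMIs. In thinned cells, 57.5% and 52.7% of cluster 6 and 2.68% and 2.38% of cluster 9 had a Vtn UMI. Cluster 8 came next at 1.15 and 0.858 per 10,000, and RPE cells followed at 0.350 and 0.400.

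Kcnj8 and Abcc9, the channel subunits, were distributed alike. Kcnj8 stood at 2.81 and 3.76 UMIs per 10,000 in cluster 6, 1.02 and 1.09 in cluster 5, and 0.203 and 0.301 in cluster 9. Abcc9 stood at 1.36 and 1.22 in cluster 6, 0.658 and 0.574 in cluster 5, and 0.0901 and 0.0670 in cluster 9. Cluster 6 over cluster 9 was 13.8 (9.87 to 19.9) and 12.5 (9.46 to 16.8) for Kcnj8. For Abcc9 it was 15.1 (9.13 to 26.8) and 18.1 (10.2 to 35.6). Both genes thus had the stromal cluster 5 as their next cluster, beyond counting error, and both were low in smooth muscle cells. Thinned shares of cells with a Kcnj8 UMI were 33.3% and 42.3% in cluster 6, 17.0% and 14.8% in cluster 5 and 3.75% and 5.40% in cluster 9, against 2.21% and 2.94% in RPE cells. The paralogous receptor gene Abcc8 was counted 0 and 8 times in the whole libraries, and the paralogous pore gene Kcnj11 was not among the listed genes.

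Cspg4 encodes the NG2 proteoglycan, a membrane-spanning core protein long used to stain pericytes. It was sparse, with 357 and 265 UMIs in the libraries. Its level was 0.539 and 0.468 UMIs per 10,000 in cluster 6 and 0.907 and 0.586 in cluster 9. The ratio of cluster 6 to cluster 9 was 0.594 (0.462 to 0.761) in B6129PF1/J and 0.799 (0.596 to 1.07) in C57BL/6J, so the excess in cluster 9 was beyond counting error in the first library only. Cluster 12 came next, at 0.229 and 0.147 from 7 and 4 UMIs, not beyond counting error over the cluster after it.

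Mcam encodes CD146, an adhesion molecule of the immunoglobulin superfamily. It was at 0.940 and 0.573 UMIs per 10,000 in cluster 6 and at 2.96 and 2.09 in cluster 9. Cluster 6 over cluster 9 was 0.317 (0.267 to 0.375) and 0.274 (0.219 to 0.340), the lowest ratio among the 8 markers in both libraries. Schwann cluster 12 carried 2.91 and 2.57, which did not differ from cluster 9 beyond counting error, and endothelial cluster 2 carried 1.62 and 1.37. Clusters 6 and 9 together therefore held less of Mcam than of Rgs5 or Higd1b, with 13.8% and 9.60% of its UMIs in cluster 6 and 37.8% and 33.0% in cluster 9.

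Anpep encodes aminopeptidase N (CD13), an ectoenzyme of the cell surface. Its levels in stromal clusters 8, 7 and 5 were 0.743 and 1.01, 0.730 and 0.817, and 0.564 and 0.578 UMIs per 10,000. Cluster 6 had 0.406 and 0.473. Clusters 8 and 7 did not differ beyond counting error in either library. In cluster 9, 9 and 2 UMIs gave levels of 0.0507 and 0.0112, and cluster 6 over cluster 9 was 8.01 (4.02 to 18.1) and 42.4 (11.4 to 356). Anpep was therefore spread over the stromal clusters rather than held in clusters 6 and 9.

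Against the 4 stromal clusters pooled, smooth muscle cluster 9 was at least 5-fold higher for 1 member, Mcam, at 9.23-fold (7.87 to 10.9) and 10.3-fold (8.31 to 12.7), and 2.76% and 2.65% of all genes passed that fold. It was at least 5-fold lower for 4 members, against 9.08% and 9.23% of all genes. These were Kcnj8 (stroma 7.09- and 6.09-fold higher), Abcc9 (8.69- and 10.7-fold), Vtn (16.7- and 12.7-fold) and Anpep (10.9- and 54.1-fold, the latter resting on 2 UMIs in cluster 9). Against cluster 6 alone, the same 4 members were at least 5-fold lower in cluster 9, with a background of 5.95% and 6.65%. No member was at least 5-fold above cluster 6, a fold that 2.97% and 2.41% of all genes passed.

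Of the 19 further pericyte genes, 18 had a row, and they leaned to cluster 6 with smaller folds than Kcnj8, Abcc9 and Vtn. In cluster 6, 14 and 16 of the 18 exceeded cluster 9, against 60.9% and 63.2% of all genes. Highest of all 13 clusters there were 11 and 12, against 4.28% and 4.27% of all genes with at least 20 UMIs. The median log2 ratio of cluster 9 over cluster 6 was -0.76 and -0.85 for the list, -0.18 and -0.24 for all genes and -1.79 and -2.39 for the members. Art3, an ecto-ADP-ribosyltransferase, was the only listed gene at least 5-fold lower in cluster 9 than in cluster 6, at 0.214 and 0.363 UMIs per 10,000 against 2.48 and 3.23. Slc38a11, an amino acid transporter, ran the other way, with 2.096 and 1.58 in cluster 9 and 0.695 and 0.494 in cluster 6. Notch3, the mural Notch receptor, was nearly level with 4.04 and 3.08 in cluster 6 and 3.77 and 2.54 in cluster 9. Pdgfrb, the receptor through which endothelial PDGF-B recruits mural cells, was named after its values were seen, with 6.90 and 5.90 in cluster 6 and 2.61 and 1.94 in cluster 9.

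The contractile genes leaned to cluster 9. They include the 6 smooth muscle markers set against its label above, so this lean was partly fixed in advance. Of 11, 9 in each library were at least 5-fold above the 4 stromal clusters in cluster 9 (all genes, 2.76% and 2.65%). At least 5-fold above cluster 6 were 7 and 8 (all genes, 2.97% and 2.41%). Highest in cluster 9 were 9 and 10 (all genes, 5.59% and 5.43%). The median log2 ratio of cluster 9 over cluster 6 was 3.04 and 2.60. Myh11, the smooth muscle myosin heavy chain, stood at 16.6 and 13.1 UMIs per 10,000 in cluster 9 and 0.798 and 0.605 in cluster 6. Cnn1, calponin, stood at 2.71 and 2.03 in cluster 9, and 1 UMI of it was counted in cluster 6 of each library. Des, the intermediate filament desmin, separated the clusters least, with 6.11 and 5.26 in cluster 6 and 5.78 and 5.84 in cluster 9.

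**Figure D2:**
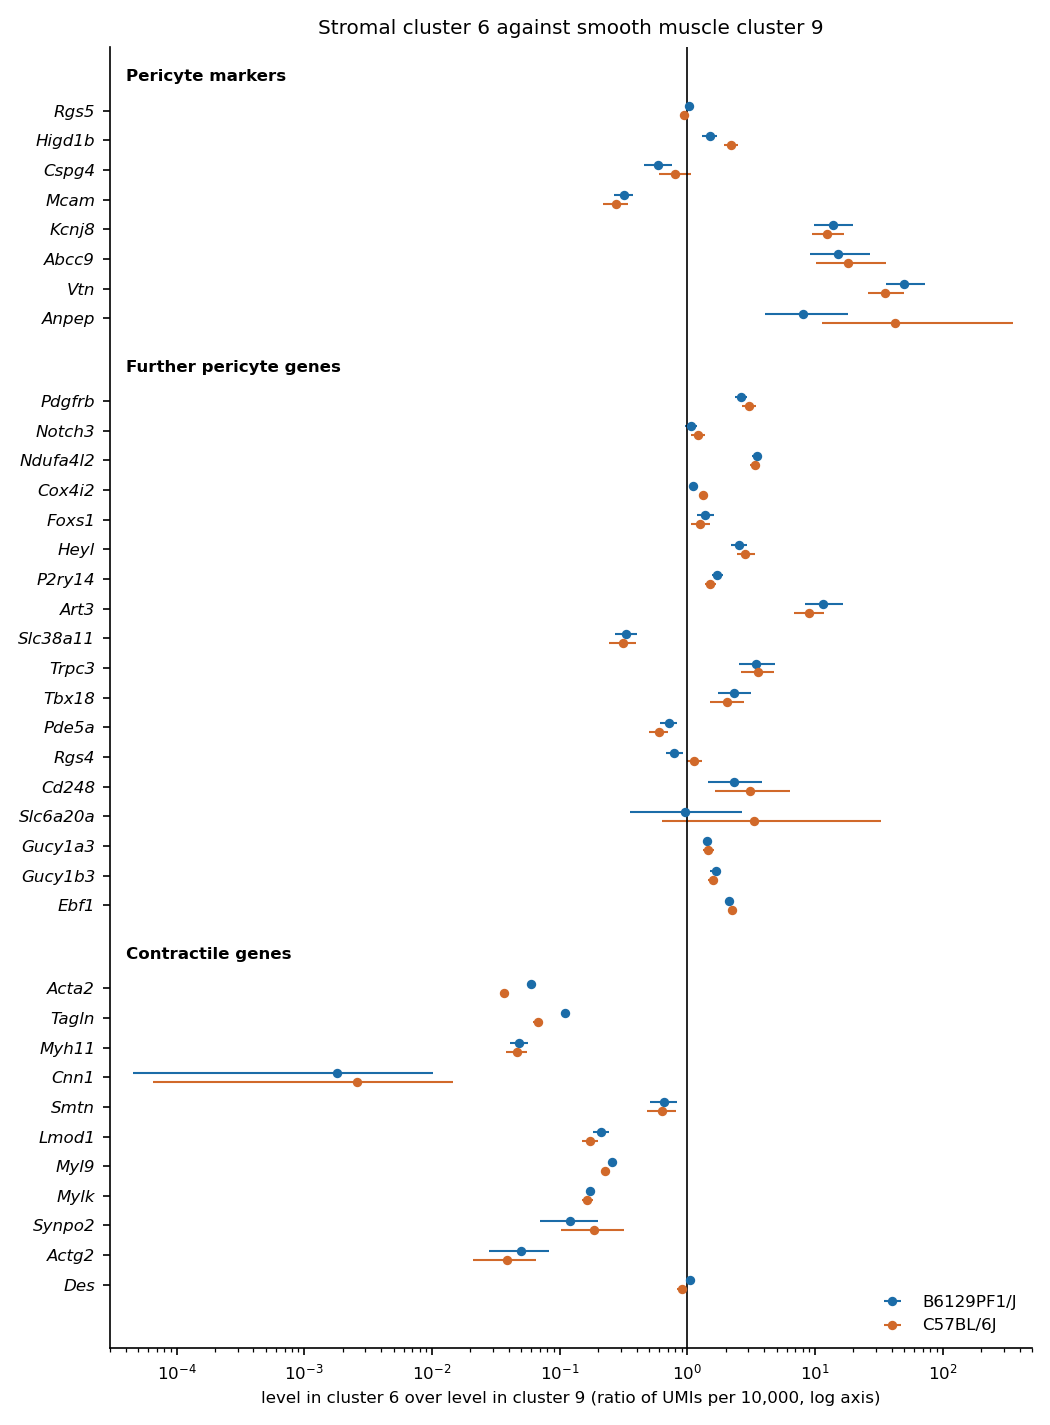
Ratio of the level in stromal cluster 6 to that in smooth muscle cluster 9 (horizontal log axis) for the 8 markers, 18 further pericyte genes and 11 contractile genes, with 1 point per library and exact 95% counting intervals. Kcnj8, Abcc9, Vtn and Anpep lay between 8.01 and 49.9998, Rgs5 at 1.04 and 0.936, and Myh11 and Cnn1 far to the left.

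Genes of mural cell recruitment were described next. Pdgfrb and Notch3 are in this list and also among the further pericyte genes. Of 13 genes, 11 and 12 passed the minimum of 20 UMIs. In each library 10 were higher in cluster 6 than in cluster 9 (all genes, 60.9% and 63.2%). Highest of all clusters in cluster 6 were 4, against 4.28% and 4.27% of all genes with at least 20 UMIs. Angpt2, the ligand that antagonises Angpt1 at the Tek receptor, was at 1.87 and 1.39 UMIs per 10,000 in cluster 6 and 0.225 and 0.430 in cluster 9. Jag1, a Notch ligand, was at 1.20 and 1.69 in cluster 6 and 1.04 and 1.69 in cluster 9.

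Cells of clusters 6 and 9 were next thinned to 1700 UMIs and grouped by their Acta2 count, keeping the clusters apart because Acta2 also separates them. Of the 396 and 467 cells without an Acta2 UMI, all but 4 and 5 belonged to cluster 6, and of the 218 and 292 cells with 20 or more, all but 3 and 1 belonged to cluster 9. Within cluster 6, Vtn did not decline with Acta2. It was at 10.009 and 7.41 UMIs per 10,000 in cells without Acta2, 9.57 and 10.6 at 1 to 4 UMIs and 10.6 and 10.3 in the 39 and 39 cells at 5 to 19. Kcnj8 in cluster 6 was at 2.78 (2.39 to 3.21) and 4.202 (3.76 to 4.68) without Acta2 and at 1.96 (1.04 to 3.35) and 2.11 (1.15 to 3.54) at 5 to 19, so it was lower beyond counting error in C57BL/6J only. In cluster 9, Vtn and Kcnj8 stayed at or below 0.654 in every bin with at least 10 cells.

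Rgs5 varied with Acta2 inside both clusters. In cluster 6 it went from 84.8 (82.6 to 87.1) and 82.5 (80.5 to 84.6) without Acta2 to 115.9 (111 to 121) and 124.6 (119 to 129.97) at 1 to 4 UMIs. In cluster 9 it went from 108.6 (104 to 113) and 124.9 (120.6 to 129) at 5 to 19 UMIs to 72.4 (69.7 to 75.2) and 86.3 (83.7 to 88.9) at 20 and more. At 5 to 19 UMIs Rgs5 in cluster 6 was at 124.3 and 132.0, and in cluster 9 it was at 147.3 and 119.3 in the 22 and 18 cells at 1 to 4. The lower levels at both ends of the Acta2 order thus came from different clusters, cluster 6 without Acta2 and cluster 9 at 20 and more. Higd1b in cluster 6 was at 2.16 (1.82 to 2.54) and 3.72 (3.30 to 4.17) without Acta2 and 3.68 (2.85 to 4.68) and 5.47 (4.42 to 6.70) at 1 to 4 UMIs. Mcam in cluster 9 was at 1.69 (1.20 to 2.32) and 1.54 (1.09 to 2.105) at 5 to 19 UMIs and 3.61 (3.02 to 4.28) and 2.47 (2.05 to 2.94) at 20 and more. The groups by Acta2 come from the same cells and 1 library per strain, so these are descriptions.

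**Figure D3:**
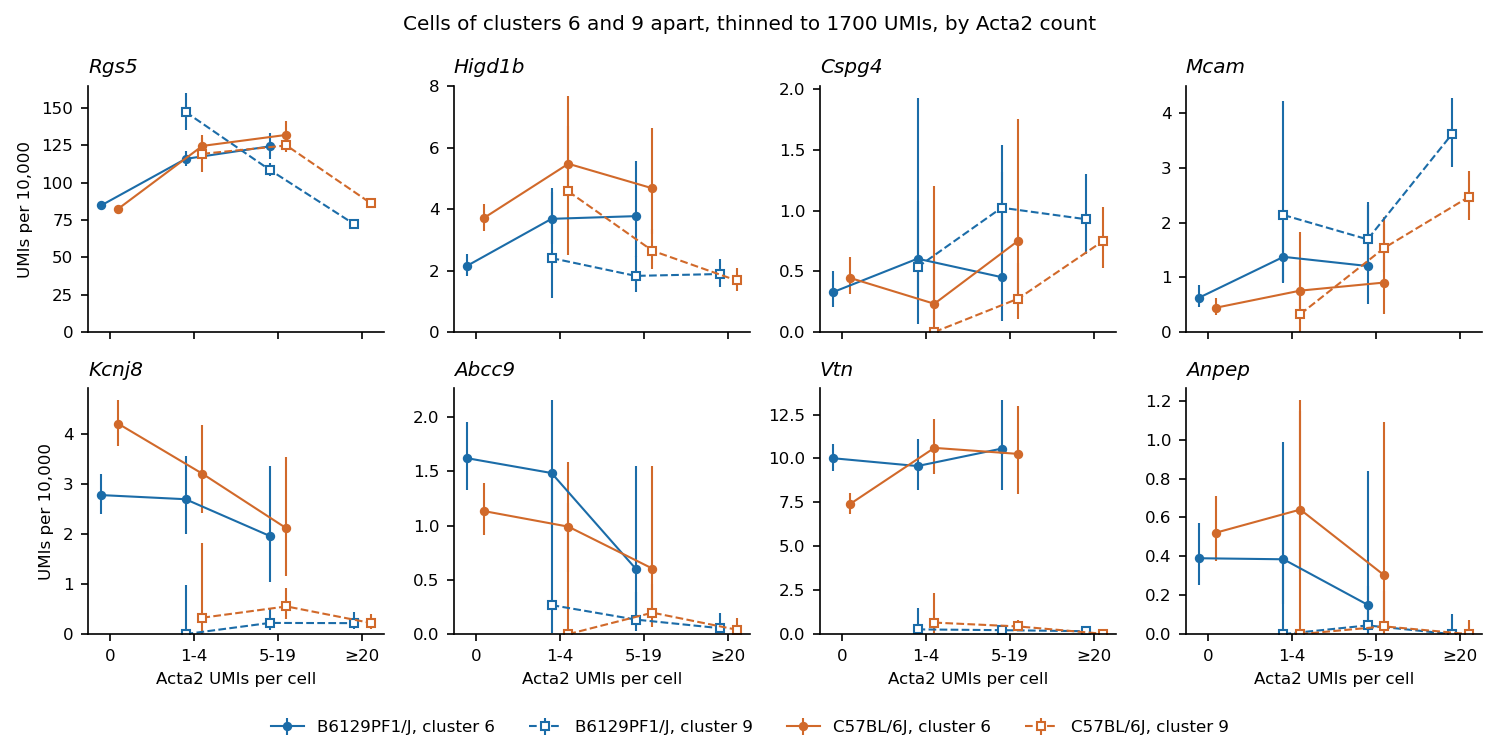
Level of each marker (vertical axis, UMIs per 10,000) in cells thinned to 1700 UMIs and grouped by Acta2 UMIs per cell (horizontal axis), for cluster 6 (filled circles, solid lines) and cluster 9 (open squares, dashed lines) of each library, with exact 95% counting intervals and groups under 10 cells not drawn. Vtn in cluster 6 was at 7.41 to 10.6 in every group drawn, whereas Rgs5 was higher at 1 to 19 Acta2 UMIs than in cluster 6 cells with none or cluster 9 cells with 20 or more.

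Cells of cluster 6 were next split by the presence of a Kcnj8 UMI. After thinning, 180 and 255 had a Kcnj8 UMI and 361 and 348 had none. Vtn was detected in 65.0% (57.6 to 72.0) and 59.2% (52.9 to 65.3) of the cells with Kcnj8 and in 53.7% (48.5 to 59.0) and 48.0% (42.6 to 53.4) of those without. Abcc9 was detected in 22.8% and 19.6% against 19.4% and 12.6%. Both shares were higher beside Kcnj8 in each library. The separate counting intervals of cells with and without Kcnj8 overlapped for each gene, which does not measure the difference between them. Rgs5 was near its ceiling in both sets, at 94.4% and 97.3% against 94.2% and 95.4%. Pdgfra, a stromal marker, was at 1.67% and 0.392% against 2.22% and 0.575%.

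The Kcnj8+ cells of cluster 5 were also described, but they had been placed in that cluster by their expression. Their profile therefore cannot show to which cluster they are closer. Of 144 and 124 such cells, 6.94% and 8.87% had an Rgs5 UMI and 31.3% and 27.4% had Pdgfra. Over all thinned cells of cluster 5, 8.96% and 9.42% had an Rgs5 UMI. Higd1b was found in 1 of the 144 cells and in 0 of the 124, which by the limit of 3 cells allows up to 2.42% of cells with a UMI. Among the 14 and 25 cells of cluster 9 with a Kcnj8 UMI, 92.9% and 100% had Acta2, and none had Abcc9, which by the same limit allows up to 21.4% and 12.0% of cells with a UMI.

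**Figure D4:**
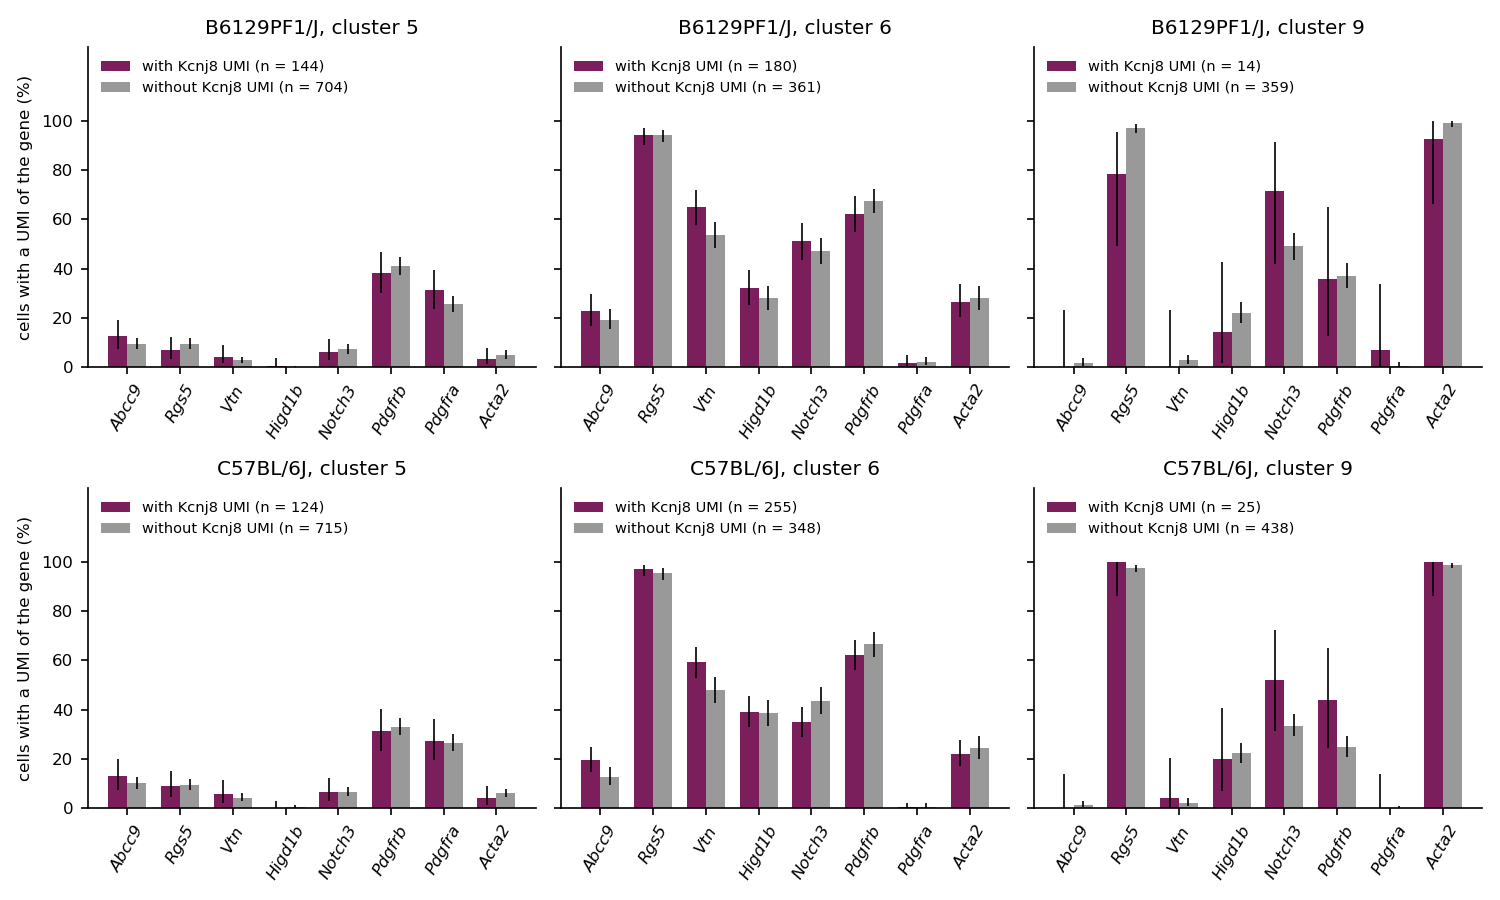
Share of cells with a UMI of each gene (vertical axis, %) in clusters 5, 6 and 9 of both libraries, thinned to 1700 UMIs and split by presence of a Kcnj8 UMI (bars, exact 95% intervals). Rgs5 was at 94.2% to 97.3% of cells on both sides of the split in cluster 6, and Rgs5 in cluster 5 was at 6.94% and 8.87% of Kcnj8+ cells while Pdgfra was at 31.3% and 27.4%.

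Rgs5 UMIs outside clusters 6 and 9 were concentrated in few cells. They numbered 3138 and 2626, and 51 and 52 cells with at least 10 UMIs held 73.0% and 69.0% of them. Without those cells the level outside clusters 6 and 9 went from 2.35 to 0.660 and from 2.28 to 0.733 per 10,000. The cells had medians of 9416 and 6958 UMIs in all, against 3804.5 and 3132 for the rest. Higd1b was detected in 43.1% and 40.4% of them against 0.524% and 0.605% of the rest, and Notch3 in 64.7% and 63.5% against 6.66% and 4.73%. The part of doublets in this was not tested. Endothelial cluster 3 had the most such cells, and 21 in each library held 91.9% and 85.4% of its Rgs5 UMIs. In cluster 12, a single cell held 94.3% and 72.9%. Cluster 7 differed in degree: without such cells its Rgs5 level was still 3.97 and 5.46, above the 0.660 and 0.733 of all clusters other than 6 and 9.

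Between the strains, the markers were set beside the spread of all genes with at least 100 UMIs in a cluster. In cluster 6, C57BL/6J over B6129PF1/J was 1.502 (1.35 to 1.68) for Higd1b, 1.34 (1.20 to 1.499) for Kcnj8, 0.969 (0.9495 to 0.989) for Rgs5, 0.893 (0.747 to 1.07) for Abcc9, 0.805 (0.753 to 0.861) for Vtn and 0.610 (0.478 to 0.776) for Mcam. The central 95% of the 5055 genes with at least 100 UMIs there ran from 0.660 to 1.53, which leaves Mcam alone outside. This range includes sparse genes, whose ratios carry wide counting error. Higd1b, Kcnj8, Rgs5 and Vtn lay inside it, yet differed between the libraries beyond their own counting error. In cluster 9, Mcam was at 0.706 (0.617 to 0.808) and Cspg4 at 0.646 (0.500 to 0.831), just inside the 0.645 to 1.52 of 4257 genes. Strain and library cannot be told apart.

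The genes most like each marker were taken from the same 26 cluster levels, so they share its pattern by construction. The measure was Pearson's r of ln(1 + UMIs per 10,000) among 9977 genes, and the points share libraries and clusters. Kcnj8 and Abcc9 were each other's nearest gene (r = 0.963), followed by Avpr1a and Coch for Kcnj8 (0.960 and 0.956) and by Pla1a and Agtr1a for Abcc9 (0.960 and 0.948). Vtn was near Steap4 and Mnd1 (0.960 and 0.958). Higd1b was nearest to Ephx3, Rgs4 and Serpini1 (0.982, 0.977 and 0.972), and Rgs5 to Gm13889, Rgs4 and Aspn (0.953, 0.946 and 0.942). Cspg4 was nearest to Rasl12, Itga7 and Myl9 (0.952, 0.944 and 0.942), Anpep to Dcn, Inmt and Nupr1 (0.952, 0.9496 and 0.947), and Mcam to Asap2, Pdgfa and Sorbs2 (0.940, 0.847 and 0.824). Anpep and Mcam ran against each other (r = -0.55).

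The deletion of endothelial Ihh addressed whether loss of the ligand altered RPE/choroid. The values used were the authors' mean FPKM (fragments normalised for transcript length and library size) of each genotype, given without a spread. No test was made from them, and the authors' own adjusted p-values were not used. Ihh itself went from 1.53 FPKM in Ihh+/+ to 0.454 in Ihh iΔEC/iΔEC, and its target Gli1 from 9.40 to 3.15. Of the 7 members with at least 1 FPKM, 0 passed 2-fold, against 1.85% of 11411 genes in either direction. Per length, Rgs5 led the markers at 69.4 FPKM in controls and 57.4 after deletion, a ratio of 0.826. Anpep followed at 16.5 and 14.7, Vtn at 10.1 and 11.01, Mcam at 8.20 and 8.01, Kcnj8 at 6.05 and 5.90 and Cspg4 at 4.38 and 4.54. Abcc9 had the lowest ratio, 0.759, from 3.17 to 2.403 FPKM, while its partner Kcnj8 had 0.975. All 7 lay within the central 95% of genes, 0.666 to 1.43. Higd1b was below 1 FPKM, at 0.771 and 0.754.

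The members' median log2 ratio was -0.04, equal to the -0.04 of all genes at 2 decimals. The further pericyte genes were at -0.29, with 13 of 14 lower, the contractile genes at -0.09 with 6 of 8 lower and the recruitment genes at -0.29 with 7 of 10 lower, against 59.3% of all genes lower. None of the 3 lists had a gene past 2-fold, and Pdgfrb and Notch3 stood in both the further pericyte and the recruitment lists. Markers of other cell types moved too, with the summed stromal markers going from 748 to 475 FPKM, melanocyte markers from 2074 to 1276, photoreceptor markers from 73.6 to 26.2 and RPE markers from 6784 to 8101. Their part in the marker values was not tested, and in bulk tissue fewer cells of a type and less RNA per cell cannot be told apart.

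In the cultured GLI1+ cells, most pericyte markers were below 1 FPKM. In DMSO, 3 members reached 1 FPKM, namely Anpep at 8.76, Mcam at 2.18 and Cspg4 at 1.89, while Rgs5 was at 0.321, Vtn at 0.0767, Abcc9 at 0.0450, Higd1b at 0.0210 and Kcnj8 at 0.0110. Pdgfrb was at 35.97 FPKM and Notch3 at 1.58. Of the contractile genes, 9 of 11 reached 1 FPKM, with Acta2 at 335, but Myh11 was at 0.897 and Des at 0.193. All 8 stromal markers reached 1 FPKM, among them Pdgfra at 39.2, Dcn at 842 and Col1a1 at 1555. With SAG, Gli1 went from 0.0280 to 3.65 FPKM. Of the 3 members tested, 0 passed 2-fold, against 1.57% of 10325 genes. Anpep went to 5.90 FPKM, a ratio of 0.673 just inside the lower end of the central 95% of genes, 0.671 to 1.38. Mcam went to 2.57 FPKM, a ratio of 1.18, and Cspg4 to 1.90. Among the further pericyte genes, 1 of 11 passed 2-fold, Rgs4, from 2.89 to 1.14 FPKM. Kcnj8 was at 0.106 and Higd1b was listed at 0 with SAG. In the single-cell libraries, Gli1 itself was counted 42 and 33 times in cluster 6 and 6 and 3 times in cluster 9. Its level in cluster 6, 0.206 and 0.174 per 10,000, was below that of cluster 5, 0.277 and 0.292. With so few UMIs, whether this order went beyond counting error was not tested.

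**Figure D5:**
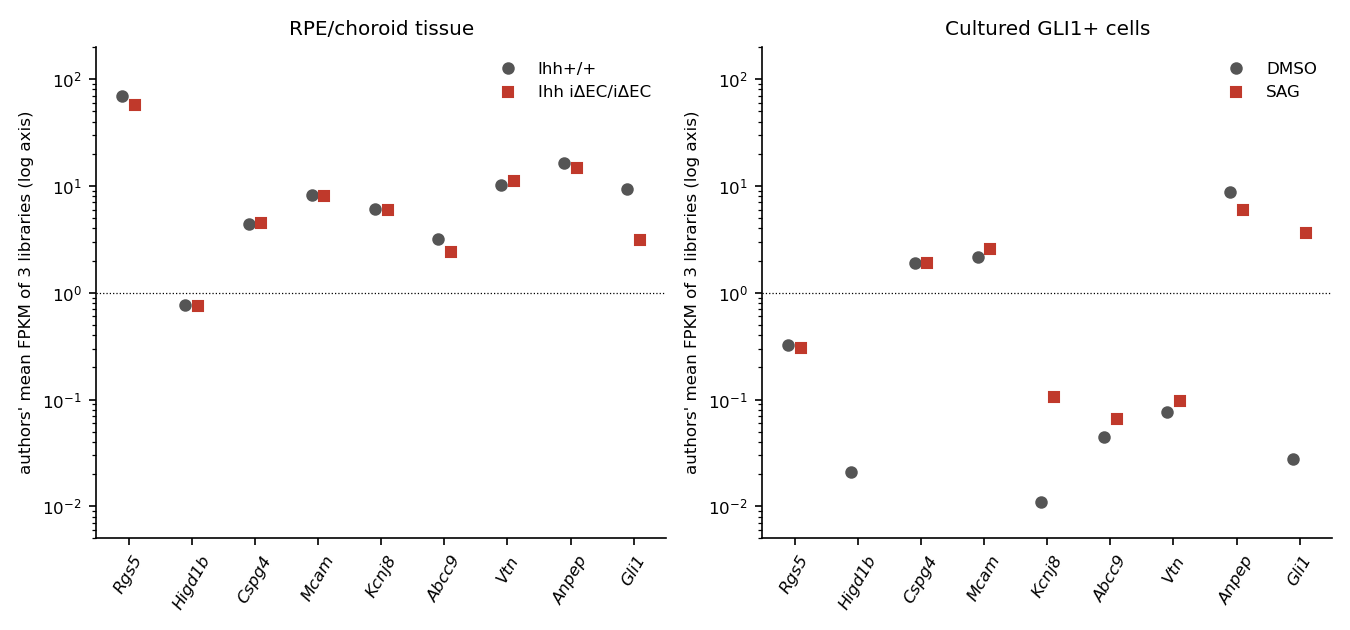
Authors' mean FPKM of 3 libraries (vertical log axis) for the 8 markers and Gli1 in RPE/choroid (left; circles, Ihh+/+; squares, Ihh iΔEC/iΔEC) and in cultured GLI1+ cells (right; circles, DMSO; squares, SAG), without error bars because only means were given, and a mean listed at 0 is not drawn. Rgs5 stood at 69.4 and 57.4 in tissue and at 0.321 and 0.303 in culture, and Gli1 moved in opposite directions in the 2 panels.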

How the data were processed

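The authors deposited single-cell UMI counts per gene and cell (Cell Ranger, then Seurat 2.1, per the submitters' processing notes), and the metadata they deposited named the cluster of each cell. A further deposited table gave cluster averages as the mean natural log of 1 plus UMIs per 10,000, used only as an alternative; its adjusted p-values and average differences between clusters were not used. For bulk RNAseq, the authors deposited group mean FPKM beside their own log2 fold changes and adjusted p-values, which were not used; STAR 2.4.0f1, HTSeq, Cufflinks 2.0.2 and DESeq2 are named in the notes. A list of genes high in choroidal endothelial cells was also searched and held 0 members. Fewer barcodes were deposited than the study states cells for each strain.

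UMIs were summed per cluster and library and divided by the UMIs of the cluster. Levels carry exact Poisson intervals, shares Clopper-Pearson intervals (a share of 0 is given the limit of 3 cells of the total instead), and ratios exact conditional binomial intervals, all at 95%. Genes with at least 20 UMIs in the compared clusters were called at 5-fold. Recomputed and deposited cluster averages had a median ratio of 1.00. UMIs come from 3′ ends and are compared between clusters, not between genes. In bulk, a gene needed 1 FPKM in the higher group and was called at 2-fold. Cells were thinned to 1700 UMIs with a fixed seed, and since the lowest cell total was 1717, no cell was left out. No doublet caller was run; removing 46 and 45 cells with UMIs of both Xist and a Y-linked gene was an alternative. No other filter on cells was applied.

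The members and lists were chosen with earlier results of these data known. The text names the members, up to 6 genes a list by the highest and lowest ratio of cluster 9 to the stroma in B6129PF1/J, the 3 genes most like each member (1 of those for Vtn is not reported here), and Ihh and Gli1 as checks. The split of clusters 5 and 6 by Kcnj8, the Acta2 bins with clusters 6 and 9 apart, the counts of lower members and of members highest in cluster 6, and the high-Rgs5 cells were added after seeing the data. Gene positions are from GENCODE vM21 on GRCm38. Versions were Python 3.11.15 with scipy 1.17.1 for intervals, numpy 2.4.6 and pandas 2.3.3 for tables and matplotlib 3.10.9 for plots, and the interval and count steps were tested on simulated data.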

Additional observations from a re-analysis of the deposited data

How the results depend on the processing

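No paired analysis was possible because the bulk tables gave group averages only and each strain had 1 single-cell library; leaving out replicates was likewise not run. Of 74 recomputed counts of members, 64 stayed within 1.5 times. The count of members called higher in cluster 9 than in the stroma went from 1 to 4 and 3 at 2-fold (B6129PF1/J and C57BL/6J), to 0 at 10-fold in B6129PF1/J, and to 0 in both against cluster 6 alone. The 4 called lower became 2 at 10-fold in B6129PF1/J. The 2 highest in cluster 9 in B6129PF1/J became 1 with the mean over cells, with thinned cells and without cells holding Xist and Y-linked UMIs. Without a minimum FPKM, 2 members passed 2-fold with SAG, Kcnj8 and Higd1b. The alternatives' own construction shows the cause for the changes of fold, reference cluster and minimum; for the others the cause was not tested.

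Of 168 recomputed values of members, 137 stayed within their counting interval. Against cluster 6 alone in place of the stroma, the log2 ratio of cluster 9 turned direction for Rgs5 in B6129PF1/J (-0.05) and for Higd1b in both libraries (-0.58 and -1.14). Counting error limits Anpep in cluster 9 most, with 9 and 2 UMIs.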
